A study of Mus musculus with 48 samples.

Results

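Abhd1, Gm2420, Atraid and Mrpl33 are 4 genes of mouse chromosome 5, taken by name from a deposited table of 48795 genes because their counts differed between mice with and without the Q140 allele of Htt. All 4 passed the filter on low counts, which left 20010 tested genes. Gm2420 passed it only through the mice with Q140. In fits on pairs of groups without Q140 alone, 3 of the 4 genes passed. The levels of the 4 genes in Q140 mice were therefore what chose them and are described here without a test. The remaining results concern how the genes went together within a mouse, and how they stood across Msh3 genotype, sex and their own neighbourhood.

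The libraries came from the cerebral cortex of 48 mice of a C57BL/6 background, all 6 months old. The mice that carried Q140 were 8 labelled heterozygous Q140 knock-in alone, 8 labelled Q140 with Msh3+/- and 8 labelled Q140 with Msh3-/-. The mice without it were 7 wild type (WT), 9 Msh3+/- and 8 Msh3-/-. Q140 replaces the start of the mouse Htt gene with a version holding a long CAG repeat, driven by the Htt promoter itself, and a normal Htt copy remains in a heterozygote. Both sexes were present in each group. Each column is labelled as a separate animal replicate, and nothing else states how animals or tissue pieces were pooled.

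Htt encodes huntingtin, the protein whose expanded glutamine tract causes Huntington's disease, and Msh3 encodes a mismatch repair protein that takes part in lengthening such repeats in brain cells. Genes that lie close together on a chromosome are usually inherited together, so the DNA around a knock-in allele tends to travel with it. The 4 genes have unrelated roles. Abhd1 belongs to the family of alpha/beta-hydrolase fold proteins, which split or transfer ester and amide bonds. Atraid encodes a membrane glycoprotein of the lysosome that partners with the transporter Slc37a3. Mrpl33 encodes a small protein of the large subunit of the mitochondrial ribosome, which makes the membrane proteins of the respiratory chain. Gm2420 is a pseudogene of no established role.

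All 4 genes lie on the plus strand before Htt in the GRCm38 build, with GENCODE M21 annotation. Abhd1 (ENSMUSG00000006638) spans chr5:30950066-30955091 and starts 3.812 Mb before the start of Htt. Atraid (ENSMUSG00000013622) spans chr5:31048312-31054623 and starts 3.713 Mb before it. Mrpl33 (ENSMUSG00000106918) spans chr5:31596935-31664384, 3.165 Mb before it by its start. Gm2420 (ENSMUSG00000082305) spans chr5:32720330-32736194, 2.041 Mb before it by its start, and Htt itself spans chr5:34761740-34912534. Atraid and Mrpl33 are annotated as protein coding. The mouse Abhd1 is annotated as a processed transcript with no coding frame in GENCODE and as a transcribed pseudogene in RefSeq, while the human gene is coding. Gm2420 is annotated as a transcribed unprocessed pseudogene.

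The reads of Abhd1 and Gm2420 could be shared with others, so the stretches at issue are shown. Of the 1758 exonic bases of Abhd1, 1575 (89.6%) overlapped exons of Preb on the opposite strand. The first line below is the only exonic part of its transcript of 1352 bases that lies outside Preb exons, 183 bases at chr5:30950066-30950248 of GRCm38 on the plus strand. Gm2420 overlapped no other gene, but 5.5% of its 50-base words also occurred in transcripts of Sfi1, a centrosome gene on chromosome 11, in the same orientation. Those words covered 460 of the 2149 bases of one Gm2420 transcript, 524 of 2249 bases of another and 0 of 447 bases of the last. The second line is the longest such stretch within an exon, 67 bases at chr5:32729180-32729246 on the plus strand, from GENCODE M21 transcript sequence.
Abhd1: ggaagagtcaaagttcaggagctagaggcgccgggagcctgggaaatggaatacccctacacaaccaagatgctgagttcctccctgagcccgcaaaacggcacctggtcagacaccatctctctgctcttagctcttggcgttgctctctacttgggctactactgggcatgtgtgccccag
Gm2420: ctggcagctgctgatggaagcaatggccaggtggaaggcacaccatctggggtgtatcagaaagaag

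The promoter sequences of Atraid and Mrpl33 are shown because these are the coding genes of the group. These are the RefSeq promoter windows, 300 bases each on the plus strand of GRCm38.p6, at chr5:31048390-31048689 for Atraid and chr5:31613701-31614000 for Mrpl33. The search covered both strands for GCGCATGC, the core of the NRF1 motif, and CCGGAAGT, the core of the ETS family motif, and capitals mark the matches. The Mrpl33 window held both, starting at bases 239 and 248 of the window and not overlapping. The Atraid window held neither of these exact words. Of 32851 RefSeq windows of this kind, 2.71% held the first word and 3.89% the second. The Mrpl33 window lies inside the annotated span of the gene, well past its start at chr5:31596935. Whether these words bear on the levels of the genes was not tested.
Atraid: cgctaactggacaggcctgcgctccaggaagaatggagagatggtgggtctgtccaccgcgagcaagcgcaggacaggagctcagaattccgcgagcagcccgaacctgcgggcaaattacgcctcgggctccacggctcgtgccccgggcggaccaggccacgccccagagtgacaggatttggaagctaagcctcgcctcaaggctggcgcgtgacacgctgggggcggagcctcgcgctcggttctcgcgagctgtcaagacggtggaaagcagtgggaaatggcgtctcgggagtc
Mrpl33: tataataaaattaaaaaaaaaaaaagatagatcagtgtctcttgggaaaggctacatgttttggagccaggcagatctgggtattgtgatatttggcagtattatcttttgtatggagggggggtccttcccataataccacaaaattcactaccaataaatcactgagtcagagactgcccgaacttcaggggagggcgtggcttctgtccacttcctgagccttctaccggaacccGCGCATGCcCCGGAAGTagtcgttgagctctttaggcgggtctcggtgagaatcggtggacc

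Library totals ran between 35.9 and 64.5 M counts (M, mega), with a mean of 46.5 M. Levels are given as counts per M counts (CPM) on library sizes scaled by the trimmed mean of M-values. As a check on tissue, the summed level of 8 cortical excitatory neuron markers was 2010 to 2260 CPM in Q140 carriers and 1900 to 2250 CPM in non-carriers, and that of 6 striatal projection neuron markers was 136 to 185 CPM in carriers and 128 to 167 CPM in non-carriers. The summed level of 6 choroid plexus markers was 4.29 to 14.6 CPM in carriers and 3.55 to 1200 CPM in non-carriers. Htt did not pass the test between carriers and non-carriers (log2 fold change 0.00 ± 0.02 SE, edgeR quasi-likelihood adjusted p = 0.997). Counts over the whole Msh3 gene were highest in libraries labelled Msh3-/-, at 99.1 to 125 CPM with or without Q140, against 61.2 to 77.4 CPM in those labelled Msh3+/- and 25.9 CPM or less in the rest. Whole-gene counts of Msh3 thus went up with the number of altered alleles, the opposite of a loss of transcript, and they do not show which part of the gene was altered. The 3 classes did not overlap, so each library matched the others of its labelled Msh3 genotype. In these bulk samples fewer cells of a type and less RNA per cell cannot be told apart.

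Abhd1 stood higher in carriers, at 2.05-fold its non-carrier level in the fit over all mice. Its lowest, median and highest values were 5.32, 6.35 and 7.26 CPM in Q140 mice, 2.89, 6.26 and 7.66 CPM in Q140 x Msh3+/- mice and 2.62, 5.45 and 6.29 CPM in Q140 x Msh3-/- mice. They were 2.15, 2.71 and 3.32 CPM in WT mice, 2.51, 2.69 and 3.06 CPM in Msh3+/- mice and 2.22, 2.71 and 3.61 CPM in Msh3-/- mice. Every Q140 mouse lay above every WT mouse, whereas both crossed groups reached down into the range of mice without Q140. Over all carriers Abhd1 averaged 5.72 ± 1.38 CPM, against 2.78 ± 0.35 CPM in non-carriers (SD, n = 24 each). The fitted log2 fold change was 1.19 ± 0.15 (SE) for Q140 over WT, 1.16 ± 0.14 for Q140 x Msh3+/- over Msh3+/-, and 0.75 ± 0.15 for Q140 x Msh3-/- over Msh3-/-.

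Gm2420 had the largest ratio and the fewest reads. It summed to 175, 157 and 83 counts in the Q140, Q140 x Msh3+/- and Q140 x Msh3-/- groups, against 15, 35 and 14 counts in the WT, Msh3+/- and Msh3-/- groups. Single libraries held 1 to 32 counts in carriers and 0 to 12 counts in non-carriers, and 3 non-carriers held no count. A count of 0 allows up to 3 counts, which came to 0.0461 to 0.0826 CPM across the libraries, for counting error only. Lowest, median and highest levels were 0.316, 0.504 and 0.645 CPM in Q140 mice, against 0, 0.0424 and 0.0825 CPM in WT mice, and these groups did not overlap. They were 0.0781, 0.497 and 0.537 CPM in Q140 x Msh3+/- mice, against 0.0206, 0.0519 and 0.232 CPM in Msh3+/- mice, where 1 carrier lay among the non-carriers. In Q140 x Msh3-/- mice they were 0.0275, 0.201 and 0.515 CPM, against 0, 0.0228 and 0.103 CPM in Msh3-/- mice, and 3 carriers lay within the Msh3-/- range. The fitted log2 fold changes were 3.33 ± 0.49, 2.33 ± 0.41 and 2.53 ± 0.54 (SE) at the WT, Msh3+/- and Msh3-/- genotypes of Msh3, and they depend on how counts near 0 are treated.

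Atraid was the member that stood lower in carriers, by a small amount. Its lowest, median and highest levels were 26.6, 30.5 and 32.4 CPM in Q140 mice, against 33.0, 36.4 and 40.0 CPM in WT mice, with no overlap. They were 27.9, 29.3 and 36.9 CPM in Q140 x Msh3+/- mice, against 30.0, 35.3 and 38.8 CPM in Msh3+/- mice. In Q140 x Msh3-/- mice they were 26.7, 29.7 and 38.6 CPM, against 30.6, 34.5 and 37.2 CPM in Msh3-/- mice. In both crossed groups the highest carriers reached well into the non-carrier values. Carriers averaged 30.6 ± 2.96 CPM and non-carriers 35.0 ± 2.57 CPM (SD, n = 24 each). The log2 fold change was -0.27 ± 0.06 (SE) for Q140 over WT, -0.20 ± 0.06 at Msh3+/- and -0.11 ± 0.06 at Msh3-/-.

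Mrpl33 stood slightly higher in carriers. Its lowest, median and highest levels were 9.95, 11.2 and 12.4 CPM in Q140 mice, against 8.66, 9.38 and 10.8 CPM in WT mice. They were 8.69, 11.3 and 12.3 CPM in Q140 x Msh3+/- mice, against 8.0, 9.57 and 11.2 CPM in Msh3+/- mice. In Q140 x Msh3-/- mice they were 8.08, 10.9 and 11.9 CPM, against 8.86, 9.55 and 10.6 CPM in Msh3-/- mice. The groups overlapped at each Msh3 genotype. Carriers averaged 10.9 ± 1.09 CPM and non-carriers 9.54 ± 0.721 CPM (SD, n = 24 each), and the log2 fold changes were 0.26 ± 0.07, 0.22 ± 0.06 and 0.11 ± 0.07 (SE) at the WT, Msh3+/- and Msh3-/- genotypes.

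**Figure D1:**
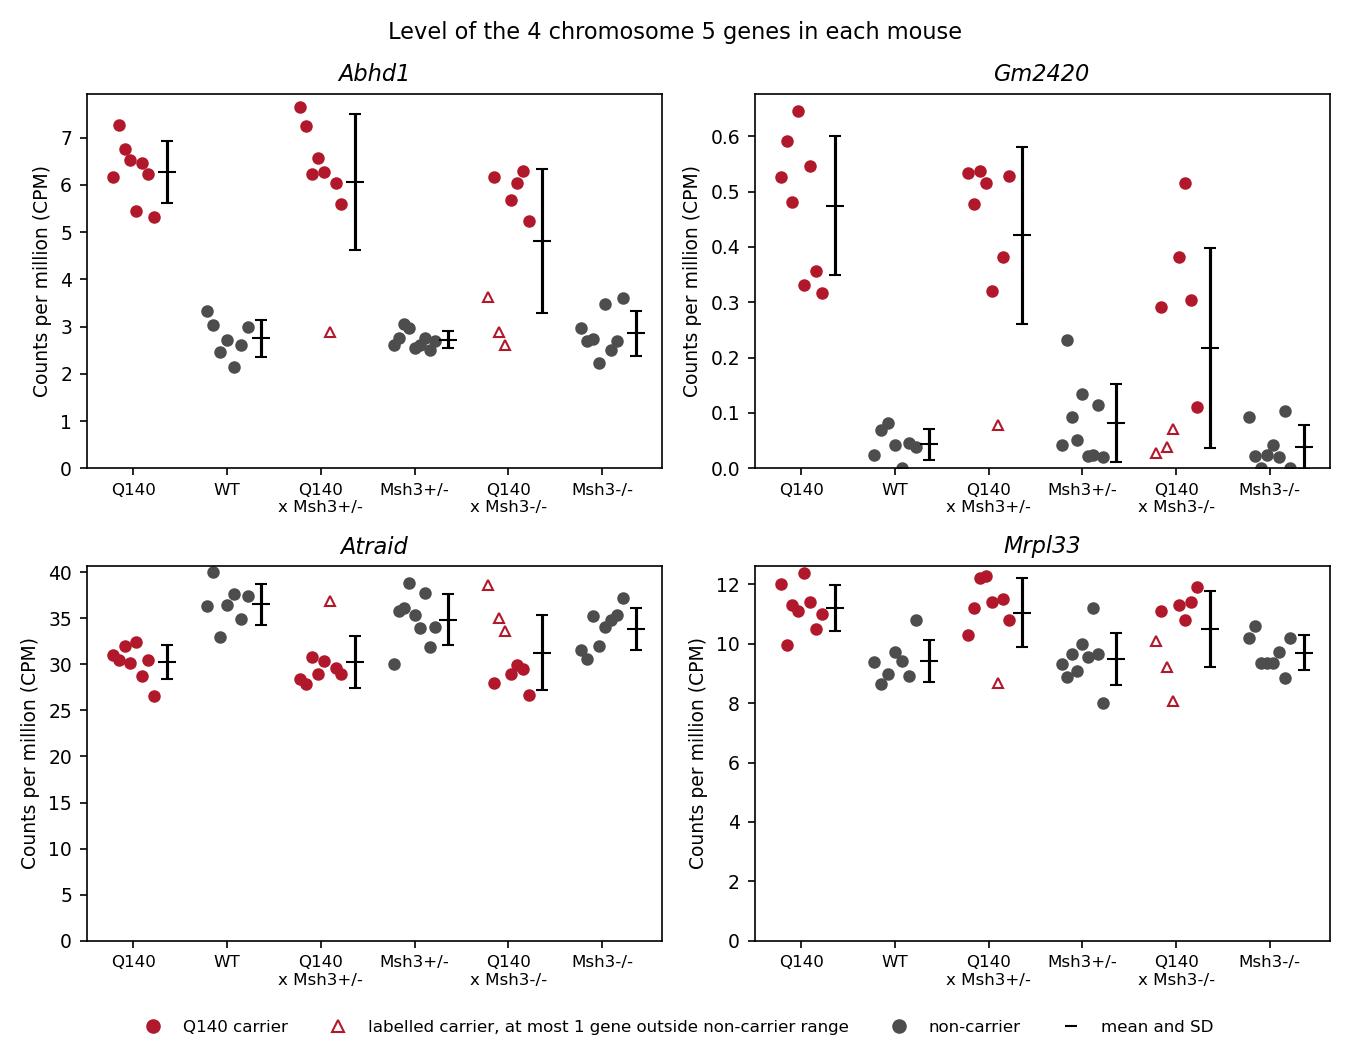
Level of each gene (CPM, linear axis from 0) in every mouse, with carriers in red left of the matching non-carriers in grey; bars give the mean and SD beside each group. Open triangles are 4 libraries labelled as carriers in which at most 1 of the genes lay outside the non-carrier range, such as the Q140 x Msh3+/- mouse with 2.89 CPM of Abhd1.

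Per length of transcript the order of the 4 means was the same in carriers and non-carriers. On the deposited FPKM scale (fragments per kilobase of exon, scaled to library size), Atraid averaged 14.7 ± 1.5 in carriers and 16.8 ± 1.33 in non-carriers. Abhd1 averaged 3.26 ± 0.781 FPKM in carriers and 1.58 ± 0.206 FPKM in non-carriers. Mrpl33 averaged 1.49 ± 0.151 FPKM in carriers and 1.30 ± 0.104 FPKM in non-carriers, and Gm2420 averaged 0.161 ± 0.0813 FPKM in carriers and 0.0241 ± 0.0228 FPKM in non-carriers (SD, n = 24 each). Atraid was far above the other genes in both sets, and Abhd1 and Mrpl33 differed by less than the sum of their SDs in non-carriers. The FPKM values implied a length of 7326 bases for Mrpl33, the union of all its annotated exons, while one of its transcripts has 478 bases, so the level of that transcript per length would be understated.

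The question of whether the genes agree within a mouse was put by asking, for each carrier, which genes lay beyond all 24 non-carriers. Abhd1 lay above the non-carrier range of 2.15 to 3.61 CPM in 21 of 24 carriers, and 0.005% of tested genes had as many carriers above the range, which is Abhd1 itself. Gm2420 lay above its range of 0 to 0.232 CPM in 19 carriers (0.01% of tested genes reached that count). Atraid lay below its range of 30.0 to 40.0 CPM in 12 carriers (0.02% of tested genes reached that count below), and Mrpl33 lay above its range of 8.0 to 11.2 CPM in 11 (0.015%). These shares come from the contrast that chose the genes, so nothing further is read from them. Counting members per mouse, 5 carriers had all 4 genes outside, 12 had 3, 3 had 2, 1 had 1 and 3 had 0. By deposited FPKM the counts were 21, 19, 9 and 9 carriers for Abhd1, Gm2420, Atraid and Mrpl33, and 20 carriers had 2 or more genes outside on either scale.

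**Figure D2:**
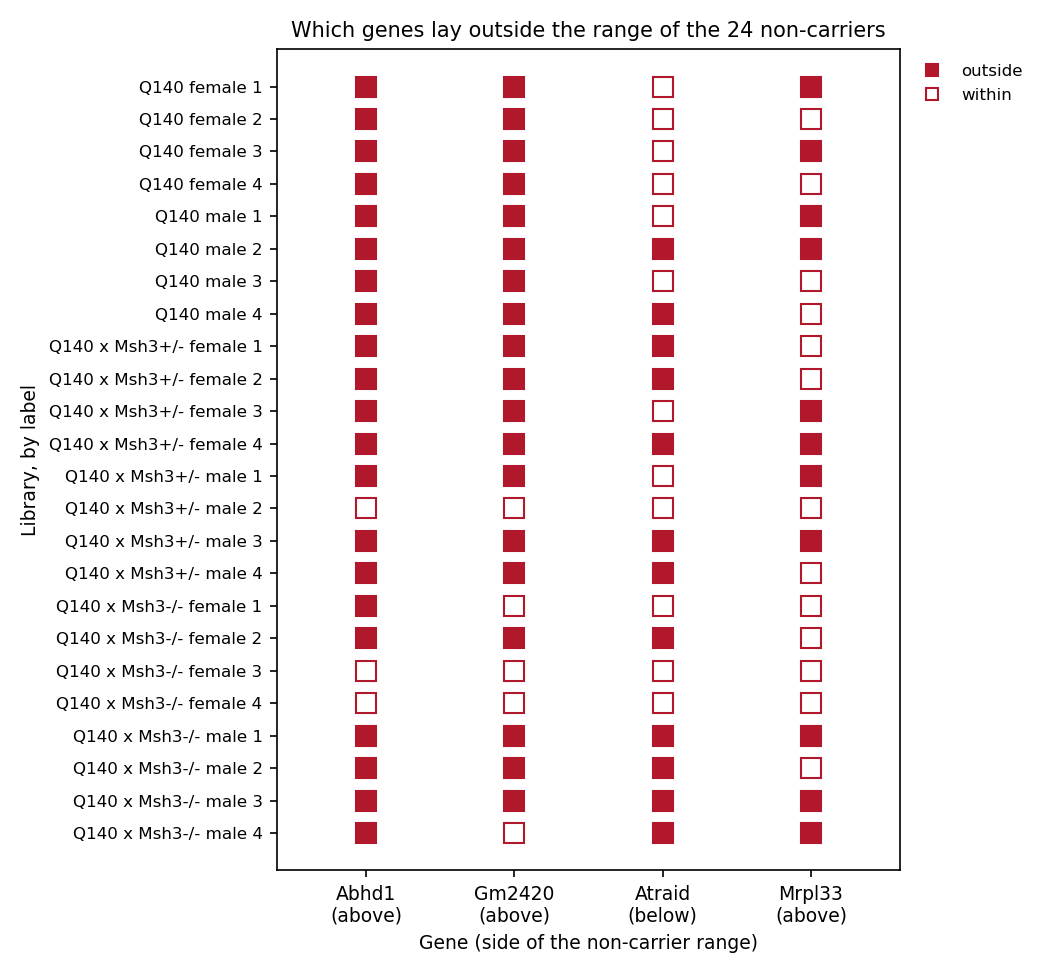
Each row is a library labelled as a Q140 carrier and each column a gene; a filled square means that its CPM lay beyond all 24 non-carriers on the side named under the gene. Abhd1 is filled in 21 rows and Gm2420 in 19, and in 4 rows at most 1 square is filled.

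In 4 libraries the genes stood together at the non-carrier level, against the label. The library labelled Q140 x Msh3+/- male 2 had 2.89 CPM of Abhd1, 0.0781 CPM of Gm2420, 36.9 CPM of Atraid and 8.69 CPM of Mrpl33, all within the non-carrier range. The library labelled Q140 x Msh3-/- female 3 had 2.89, 0.0383, 35.0 and 9.22 CPM of the same genes in that order, and the library labelled Q140 x Msh3-/- female 4 had 2.62, 0.0709, 33.6 and 8.08 CPM. All of these values lay within the non-carrier range. The library labelled Q140 x Msh3-/- female 1 had 3.63 CPM of Abhd1, just above the highest non-carrier at 3.61 CPM, and 0.0275 CPM of Gm2420, 38.6 CPM of Atraid and 10.1 CPM of Mrpl33, all within range. The next lowest carrier for Abhd1 was Q140 x Msh3-/- male 4 at 5.23 CPM. That mouse was mixed, since Atraid at 26.7 CPM and Mrpl33 at 11.9 CPM lay outside the non-carrier range while Gm2420, with 4 counts, was within it at 0.11 CPM. No non-carrier can lie outside a range that non-carriers set. With limits of the non-carrier mean ± 2 SD instead, 21, 19, 11 and 15 carriers lay outside for Abhd1, Gm2420, Atraid and Mrpl33, against 1, 1, 0 and 1 non-carriers, and no non-carrier had more than 1 gene outside.

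Msh3 and Htt of these 4 libraries lay within the ranges of the others, and 1 of the 4 was the shallowest library of all. Their totals were 37.8 M counts for Q140 x Msh3+/- male 2 and 35.9, 52.8 and 42.4 M for Q140 x Msh3-/- females 1, 3 and 4. Msh3 stood at 73.7 CPM in the first and 120, 105 and 114 CPM in the others, within their labelled Msh3 classes. The 73.7 CPM was the highest of the Q140 x Msh3+/- group, whose other mice had 61.2 to 70.8 CPM. Htt stood at 235 to 254 CPM in the 4 libraries. The wells of the 3 females were all in column 4 of the plate and that of the male in column 6. The files give no repeat length or genotype call, and whether the label, the tissue or the chromosome differs was not tested. The main contrasts of the 4 genes are therefore given with and without them. They were picked by the values of these genes, so values without them are a description. The choice itself enlarges the differences between carriers and non-carriers, and shrinks a lower level in Q140 x Msh3-/- mice against other carriers, since 3 of the 4 came from that group.

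Without the 4 libraries the differences at the 3 Msh3 genotypes came closer together. For Abhd1 the log2 fold changes were 1.18 ± 0.09 at WT, 1.26 ± 0.08 at Msh3+/- and 1.06 ± 0.09 at Msh3-/- (SE). Those of Gm2420 were 3.31, 2.47 and 3.20 in the same order. Atraid stood at -0.27, -0.25 and -0.25, and Mrpl33 at 0.25, 0.26 and 0.21. The remaining carriers averaged 6.26 ± 0.645 CPM of Abhd1, 0.435 ± 0.131 CPM of Gm2420, 29.5 ± 1.55 CPM of Atraid and 11.3 ± 0.653 CPM of Mrpl33 (SD, n = 20). Whether the Q140 difference itself varied with Msh3 genotype was not tested. With all 48 mice Atraid at Msh3-/- was -0.11, against -0.25 without the 3 libraries of that group.

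**Figure D3:**
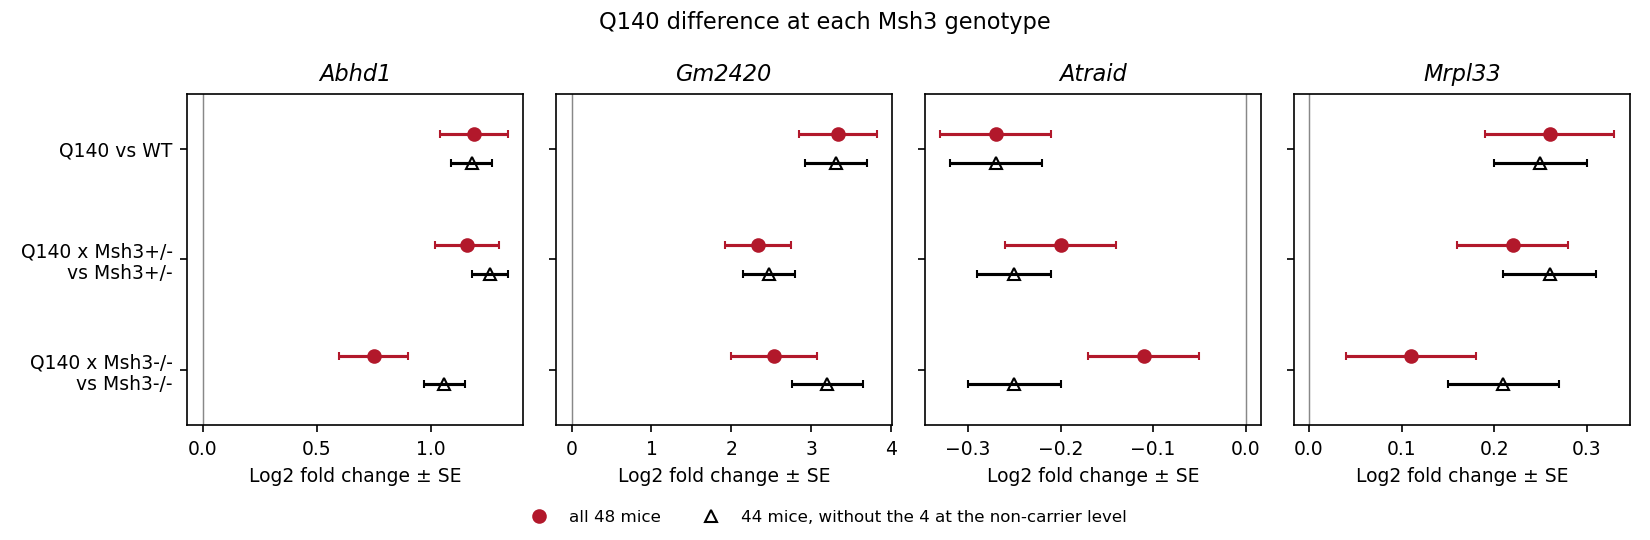
Log2 fold change (± SE) of carriers over non-carriers for each gene at each Msh3 genotype, with all 48 mice (red circles) and with 44 mice (open triangles). At Msh3-/- Abhd1 is 0.75 with all mice and 1.06 without the 4 libraries, and Atraid is -0.11 with all mice and -0.25 without them; for Q140 over WT the pairs lie close together.

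Within carriers the levels of the genes ran together over mice mainly through those 4 libraries. Over 24 carriers, on the log2 CPM scale, Pearson's r of Abhd1 was 0.89 with Gm2420, 0.74 with Mrpl33 and -0.70 with Atraid, with Spearman's rho of 0.72, 0.27 and -0.34. In the other 20 carriers r was 0.60 with Gm2420, -0.42 with Mrpl33 and 0.19 with Atraid. Over the 24 non-carriers the same values of r were 0.00, 0.13 and 0.32. Only the pair of Abhd1 and Gm2420 kept its sign among the 20; the other 5 pairs of genes had the opposite sign there. The points share their library and its scaling, and these values are given as a description.

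**Figure D4:**
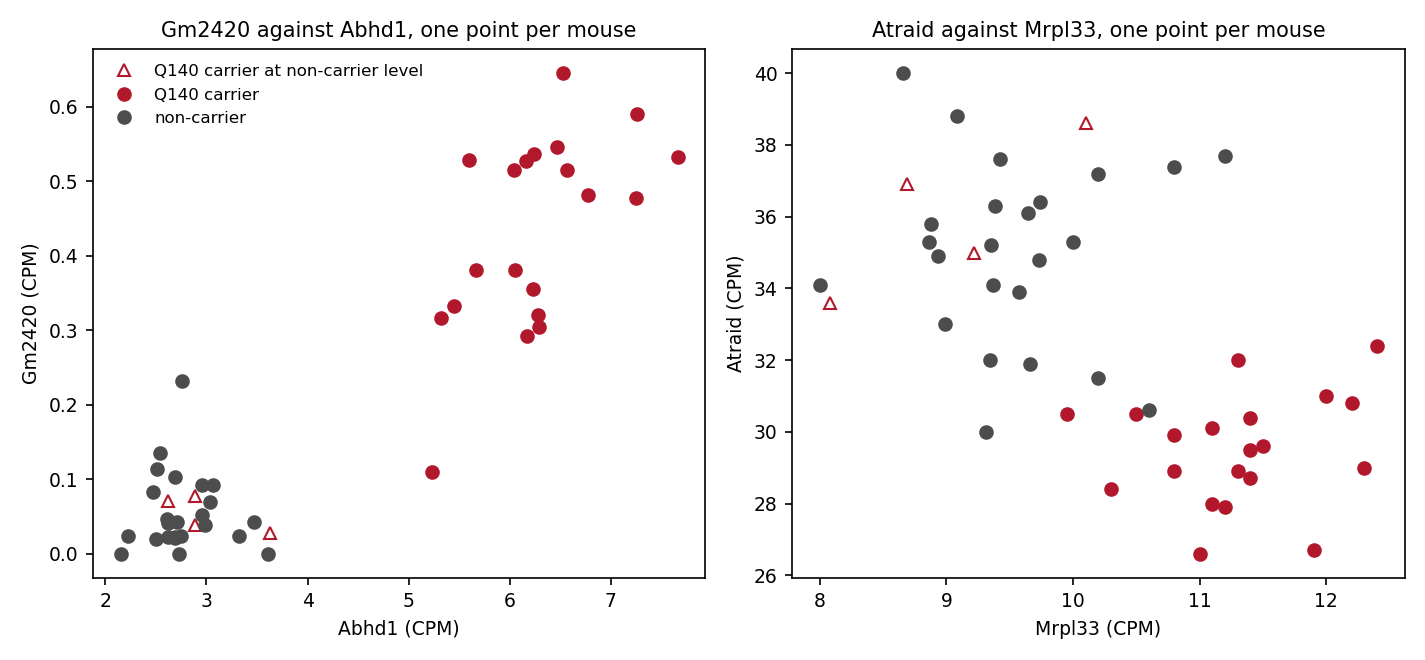
Gm2420 against Abhd1 (left) and Atraid against Mrpl33 (right), both in CPM, one point per mouse. On the left the 4 open triangles lie among the grey non-carriers, below an Abhd1 level of 5.23 CPM, the lowest of the other carriers.

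The differences had the same sign in each column of the plate, as the well addresses give it. Abhd1 in carriers over non-carriers ranged between 0.72 and 1.23 on the log2 scale across the 6 well columns, and Gm2420 between 2.03 and 3.26. Atraid ranged between -0.37 and -0.08, and Mrpl33 between 0.13 and 0.30. The lowest value of Abhd1 was in column 6 and the next in column 4, the columns of the 4 libraries, and they were 1.07 and 1.44 without these. Each column held 3 to 6 carriers and 2 to 5 non-carriers. The sample descriptions also carry a name stem shared by some mice, whose meaning the labels do not give. In 10 stems with both kinds of mouse, the carriers lay wholly on the same side of the non-carriers for Abhd1 in 9, for Gm2420 in 9, for Atraid in 8 and for Mrpl33 in 9. The exceptions fell in the stems Mh3Q47 and Mh3Q48, each of which holds 1 of the 4 libraries. Small gaps also counted as separate there, as for Gm2420 in Mh3Q47 at 0.0781 CPM in the carrier and 0.0428 CPM in the non-carrier. The splits by column and by stem use the contrast that chose the genes, so they are a description only.

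Whether Msh3 genotype moved the genes was tested over 6 contrasts. The genes were chosen on the difference by Q140 and not on these contrasts, but on the same mice. Only the contrasts between the 2 altered Msh3 genotypes share no mouse with Q140 against WT. P-values of the others are therefore not independent of the choice. Contrasts between carriers also share the 4 libraries. None of the 4 genes passed an adjusted p of 0.05 in any of the 6 contrasts by edgeR's quasi-likelihood test, and none did by DESeq2 or by limma with sample weights. Across all tested genes the percentages called were 0.035% for Msh3-/- against WT, 0.025% for Msh3+/- against WT, 0.02% for Msh3-/- against Msh3+/-, 0.045% for Q140 x Msh3-/- against Q140, 0.02% for Q140 x Msh3+/- against Q140 and 0.015% for Q140 x Msh3-/- against Q140 x Msh3+/-. At an unadjusted p under 0.05 there were 2 genes, Abhd1 and Gm2420, in both contrasts that set Q140 x Msh3-/- against another carrier group, and 0 in the rest. Of all 20010 tested genes, 1814 had such an edgeR p for Q140 x Msh3-/- against Q140. There were 881 for Q140 x Msh3-/- against Q140 x Msh3+/-, and 1028 to 1901 in the rest. The same table of all mice served each contrast, so those with a common group are not independent.

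The nearest to a difference were the pair of genes in Q140 x Msh3-/- mice. Abhd1 averaged 4.82 ± 1.53 CPM there and 6.28 ± 0.647 CPM in Q140 mice (SD, n = 8 each), a log2 fold change of -0.38 ± 0.14 (SE, edgeR adjusted p = 0.403). Gm2420 averaged 0.217 ± 0.181 CPM in Q140 x Msh3-/- mice and 0.474 ± 0.125 CPM in Q140 mice, a log2 fold change of -1.03 ± 0.36 (edgeR adjusted p = 0.381). A two-sided exact permutation test over the mice gave p = 0.00684 for Gm2420 and p = 0.0266 for Abhd1, with Benjamini-Hochberg values over the 24 tests of 0.164 and 0.239. The Q140 mice took part in the choice of the genes, so these p-values are not independent of it. Without the 4 libraries the log2 fold changes were -0.36 ± 0.32 for Gm2420 and -0.06 ± 0.09 for Abhd1 (SE), given as a description only, because libraries low in these same genes were left out of the Q140 x Msh3-/- group.

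Against Q140 x Msh3+/- mice the Q140 x Msh3-/- mice differed by -0.33 ± 0.14 for Abhd1 and -0.87 ± 0.37 for Gm2420 (log2, SE), each with an edgeR adjusted p of 0.982. Without the 4 libraries these were -0.11 and -0.33, again as a description that the choice of libraries moves towards 0. In mice without Q140, Atraid stood at 33.8 ± 2.26 CPM in Msh3-/- mice and 36.5 ± 2.20 CPM in WT mice, a log2 fold change of -0.11 ± 0.06 (edgeR adjusted p = 0.878). The exact permutation test over these mice gave p = 0.0367, or 0.239 after adjustment. Gm2420 stood at 0.0381 ± 0.0396 CPM in Msh3-/- mice and 0.0814 ± 0.0704 CPM in Msh3+/- mice (edgeR adjusted p = 0.739), both near the level of a few counts. Since Gm2420 passed the low-count filter only through the carriers, nothing is read from its tests among mice without Q140. For Mrpl33 the 6 log2 fold changes ran between -0.10 and 0.05.

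No difference by sex passed the test. The male-minus-female log2 fold changes over all mice were -0.01 ± 0.08 for Abhd1, -0.22 ± 0.25 for Gm2420, -0.01 ± 0.03 for Atraid and 0.04 ± 0.04 for Mrpl33 (SE), with edgeR adjusted p of 0.972, 0.678, 0.867 and 0.61. The count of the 4 with an unadjusted p under 0.05 was also 0, and none passed by DESeq2 or limma with weights, while 5.56% of all tested genes passed. Of the 12 female carriers 3 were among the 4 libraries, and of the 12 male carriers 1 was. Without them the values were -0.09 for Abhd1, -0.46 for Gm2420, 0.01 for Atraid and 0.02 for Mrpl33. These are a description only, because the libraries left out were picked by these same genes and were mostly female.

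Preb, the neighbour that shares most of the exonic bases of Abhd1, averaged 58.8 ± 2.22 CPM in carriers and 59.8 ± 2.82 CPM in non-carriers, a log2 fold change of -0.03 ± 0.02 (edgeR adjusted p = 0.909). Preb is a factor of the endoplasmic reticulum that helps build transport vesicles. The libraries were prepared with a strand-keeping kit, but whether the counting used strand is not given in the sources used here, so reads of Abhd1 and Preb may not be fully told apart. Slc5a6, a vitamin transporter that overlaps 19.0% of the exonic bases of Atraid on the opposite strand, averaged 21.1 ± 1.13 CPM in carriers and 20.4 ± 1.18 CPM in non-carriers (adjusted p = 0.864 by edgeR). Sfi1, which shares sequence with Gm2420, averaged 25.4 ± 2.73 CPM in carriers and 26.2 ± 2.90 CPM in non-carriers (adjusted p = 0.969 by edgeR). None of these 3 passed the test.

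Beside the 4 genes, no close neighbour was called by edgeR. Of 74 other tested genes within 1 Mb of the 4, none was called in the 3 Q140 contrasts or their mean by edgeR, and the median log2 fold change of carriers over non-carriers was 0.002, against 0.00 over all tested genes. In the mean of the 3 contrasts 14 of the 74 had an unadjusted edgeR p under 0.05, a larger share than the 1127 of all 20010 tested genes. Among these neighbours was Ppp1cb, at 252 ± 17.2 CPM in carriers and 265 ± 14.1 CPM in non-carriers (SD, edgeR adjusted p = 0.423). In 11 carriers Ppp1cb lay below its non-carrier range, and 0.05% of tested genes had at least 11 carriers below. DESeq2 called none of the 74, and weighted limma called Khk, the fructose kinase. Ppp1cb and Khk are named after their values were seen. The background for the Q140 contrasts was 0.01% of tested genes for Q140 over WT, 0.015% at Msh3+/-, 0% at Msh3-/- and 0.035% for the mean of the 3. These shares include any of the 4 genes that were called, and the 4 were chosen on this difference. Within 10 Mb of Htt, 216 genes were tested, their median was 0.001 and 17 of them, the 4 included, differed by at least the 0.19 of Mrpl33 in either direction, as did 1126 of 20010 genes. 

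**Figure D5:**
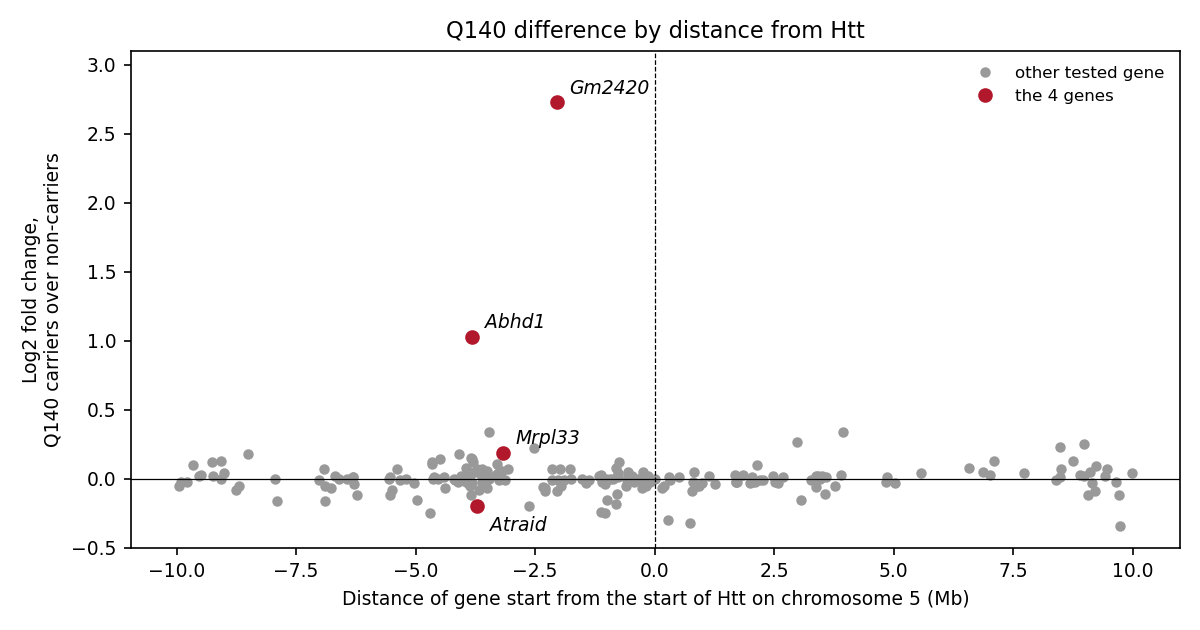
Log2 fold change of carriers over non-carriers for each tested gene within 10 Mb of Htt, by distance of its start from the start of Htt. Gm2420 at 2.73 and Abhd1 at 1.03 stand far above the other points, while Mrpl33 at 0.19 and Atraid at -0.20 lie near the edge of the cloud.

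No functional relative of the 4 genes passed the test. Of 47 other proteins of the large subunit of the mitochondrial ribosome, none was called between carriers and non-carriers, and their median log2 fold change was -0.017, with 3 at an unadjusted p under 0.05. The lowest p among them was that of Mrpl30, at 20.1 ± 1.07 CPM in carriers and 21.2 ± 0.92 CPM in non-carriers (adjusted p = 0.394 by edgeR). Of 19 other ABHD family genes none was called, with a median of -0.021 and 1 at an unadjusted p under 0.05, and that gene, Abhd3, a phospholipase, averaged 45.3 ± 2.09 CPM in carriers and 47.6 ± 1.98 CPM in non-carriers (adjusted p = 0.345 by edgeR). Slc37a3, the lysosomal partner of Atraid, averaged 50.7 ± 1.68 CPM in carriers and 49.9 ± 2.03 CPM in non-carriers (adjusted p = 0.942 by edgeR). None of these lists had a called gene in the 6 Msh3 contrasts by edgeR, DESeq2 or weighted limma. At an unadjusted p under 0.05 edgeR gave 0 to 4 genes per list and contrast there, against 881 to 1901 of all 20010 tested genes. Between carriers and non-carriers 1127 of all tested genes had such a p, a share close to those of the ribosome and ABHD lists. Nothing about the lists is read from these counts.

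The genes whose pattern was most like that of a member over all 48 mice were, for the most part, the other members. For Abhd1 the 3 highest absolute values of Pearson's r on the log2 CPM scale were 0.86 with Gm2420, 0.75 with Mrpl33 and -0.72 with Atraid, and they were 0.87, 0.75 and -0.72 over the 44 mice left without the 4 libraries. For Atraid the third was Prr14l, a gene close to Gm2420 on chromosome 5, at -0.67. Prr14l averaged 75.0 ± 4.69 CPM in carriers and 71.5 ± 2.97 CPM in non-carriers (adjusted p = 0.596 by edgeR). Among the 20 genes most like each member, 8, 7, 7 and 6 lay within 10 Mb of Htt for Abhd1, Gm2420, Atraid and Mrpl33, where 1.08% of all tested genes lie. Other members are among those counted. Ranked within the 24 carriers alone, the counts were 4, 3, 1 and 1 in the same order. The choice of the members by Q140 carriage bears on all these values.

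Within the 24 carriers the gene most like Abhd1 was again Gm2420, at r = 0.89, or 0.60 over the 20 carriers left without the 4 libraries. Mrpl33 was most like Abhd1, at 0.74 over the 24 and -0.42 over the 20. The other genes by the same rule were no members, and their r was closer to 0 over the 20. Fabp5, a fatty acid binding protein coded on chromosome 3, had r = 0.77 with Abhd1 and 0.72 with Mrpl33 over the 24, and 0.13 and 0.12 over the other 20. Gm12475 had r = 0.81 with Gm2420 over the 24 carriers and 0.17 over the 20. Psmb6, a catalytic subunit of the proteasome, had r = 0.76 with Gm2420 and 0.57 over the 20. For Atraid the nearest were Gm5561, Lipg and Gm14328, at -0.81, -0.78 and 0.76 over the 24 carriers and -0.64, -0.46 and 0.38 over the 20. Poli had r = 0.70 with Mrpl33, and 0.34 over the 20.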

How the data were processed

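Cortex RNA was made into stranded libraries, per the labels' protocols. GRCm38 was the build, with the aligner STAR (2.7.5c), the counter HTSeq (0.12.3) and SAMtools (1.10), per the submitters' processing notes. The authors deposited raw counts per gene and FPKM values, whose implied gene lengths equal the union of exons. Of 48795 IDs, 48435 matched GENCODE M21 (99.931% of counts). Each of 169 pairs of libraries within a group differed by more than sampling noise.

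Counts were fitted in edgeR 4.0.16 (R 4.3.3; filterByExpr, trimmed mean of M-values, quasi-likelihood F-test) with 6 genotype groups and sex over all 48 mice, and Benjamini-Hochberg adjustment over 20010 genes at a threshold of 0.05. The code was tested on simulated data. The log2 CPM for correlations used a prior count of 1. Named genes are the 4, Htt, Msh3, the 3 most correlated with each (48 mice, and 24 carriers), 2 per list by smallest p, and called neighbours; overlapping genes were added after their values were seen. The members and lists were chosen with earlier results of these data known. Alternatives were DESeq2 1.42.0, limma 3.58.1 (weighted counts, and log2 of FPKM + 0.1 or + 1), other scaling, filters, blocks and subsets of mice. P-values reflect the spread between mice as labelled.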

Additional observations from a re-analysis of the deposited data

Results flagged for a closer look

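Across the 24 combinations of a gene and a genotype group, 3 had a mouse far from the others of its group, and all 3 were the library labelled Q140 x Msh3+/- male 2. It was the lowest of 8 for Abhd1 at 2.89 CPM and for Gm2420 at 0.0781 CPM, and the highest of 8 for Atraid at 36.9 CPM. The criterion was Dixon's: the gap of the extreme mouse to its nearest neighbour over the whole range of the group, set against a critical value that chance exceeds, by its construction, in about 1 in 20 groups. In the Q140 x Msh3-/- group, where 3 libraries stood together at the non-carrier level, no single mouse met the same criterion.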

How the results depend on the processing

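Of the results under each alternative, 521 kept their direction and side of the threshold, and 12 moved by more than the spread between mice; none reversed. With log2 of FPKM + 1 the log2 fold changes of Abhd1 were 0.83 (Q140 over WT), 0.78 (at Msh3+/-) and 0.70 (mean of the 3), and those of Gm2420 were 0.24, 0.19, 0.10 (at Msh3-/-) and 0.18. With log2 of FPKM + 0.1 Gm2420 gave 1.34, 1.05, 0.64 and 1.01; the added constant is large beside its FPKM. Without the 4 libraries at the non-carrier level, an alternative chosen after seeing the data, Atraid at Msh3-/- was -0.25. Replicate numbers did not pair mice (mean r of deviations -0.0312 over 115 same-number pairs, between -0.244 and 0.109). With a replicate block the Q140 over WT values were 1.22 for Abhd1, 3.37 for Gm2420, -0.28 for Atraid and 0.26 for Mrpl33. In the contrasts between Msh3 genotypes, none of these genes was called with or without the block. Genes called higher in carriers over non-carriers numbered 3 without the block and 2 with it. The count of all genes called for carriers over non-carriers was 7, and 4 to 13 across alternatives (4 with the replicate block, 4 without the 4 libraries, 12 by DESeq2, 13 by weighted limma); for Q140 x Msh3-/- over Msh3-/- it was 0, with 1361 genes at an unadjusted p under 0.05, and 0 to 12 (5 by DESeq2, 12 with well column as a factor, 2 without the 4 libraries). Other Q140 counts were 2 for Q140 over WT, and 1 to 3 across alternatives, and 3 for Q140 x Msh3+/- over Msh3+/-, and 1 to 5. The cause of these changes was not tested. Depth limits Gm2420, with 1 to 32 counts in carriers and 0 to 12 in non-carriers.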
